A study of Mus musculus with 16 samples.

Results

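A divergent transcript start pair is a place where a transcript on the minus strand and a transcript on the plus strand begin close together and run away from each other. Pairs were taken from the day 0 nuclear RNA list, using rows of at least 300 bp: the start of a minus-strand row had to lie 0 to 1000 bp upstream of the start of a plus-strand row, with no overlap. The rule found 1010 pairs on 20 chromosomes. They are made of 2004 of the 35434 rows of that length, or 5.66%. There were 1002 members on each strand, and 8 minus and 8 plus rows each belonged to 2 pairs. The other 33430 rows serve as the comparison below, except where stated.

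Divergent starts are a common layout of mammalian promoters. RNA polymerase II can begin on both sides of a nucleosome-free region, and the outcome may be a pair of protein-coding genes, a coding gene with a noncoding RNA, or a coding gene with a short upstream antisense RNA that is made and quickly degraded. Such unstable RNAs are easier to see in nuclear than in whole-cell RNA. CTCF uses its zinc fingers to bind DNA, at insulators, loop anchors and many promoters, and it binds RNA as well.

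The study mapped the RNAs bound by CTCF and its DNA sites in embryonic stem (ES) cells from female hybrid mice, with an interest in the X chromosome. Day 0 cells were adherent and grown with LIF, the cytokine that keeps ES cells undifferentiated; day 3 cells had spent 3 days without LIF in non-adherent culture. Of 16 samples, 9 were used: CLIP (crosslinking and immunoprecipitation of RNA) with UV and an anti-FLAG antibody, 2 libraries a day; CTCF ChIP-seq, 2 libraries at day 0 and 1 at day 3; and strand-specific, rRNA-depleted nuclear RNA-seq, 1 library a day. CLIP and RNA cells are labelled CAST/Ei x 129/Sv/Jae and ChIP cells 129S1/CastEiJ x 129S1, so the readouts come from differently labelled crosses. CLIP without UV (4 samples) and ChIP inputs (3 samples) were not analysed here, so no background measured in them stands beside the values. Nothing in the labels says whether replicates were separate cultures; spread between them may be technical. Coordinates are mm9. The rows carry assembly identifiers and not gene names, so pairs are given by position, and the ES cell label was not checked against marker genes.

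The lists differ in size, and a longer list can reach more starts. The number of CLIP peaks was 114016 in replicate 1 and 213183 in replicate 2 of day 0, and 106382 and 165697 in those of day 3. For ChIP it was 45378 and 76746 in the day 0 replicates and 41268 in the day 3 library. Replicate 2 had the longer list at both CLIP days and in day 0 ChIP, so shares are compared within a library. Read depth behind the lists is unknown, because the files give peaks and FPKM values and no read totals. Intervals below are 95% Clopper-Pearson intervals and cover counting error over rows or pairs only.

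Short gaps were the most frequent among the pairs. The median gap was 218 bp, with quartiles at 100 and 474 bp. In bins of 250 bp the pairs numbered 549, 226, 140 and 95. Beyond 1 kb the divergent pairs levelled off at 55 to 98 a bin, with a median of 72, up to 5 kb. Convergent rows, which end towards each other, numbered 308, 227, 194 and 159 in the same first bins and 106 to 168 later. Their excess at short distance was thus smaller than that of the divergent rows. Same-strand neighbours were far more frequent, at 3986 with gaps under 1 kb against 888 convergent and 1010 divergent. The limit of 1000 bp does not fall at a step: 15 pairs had gaps of 950 to 1000 bp and 27 had gaps of 1001 to 1050 bp. The pair just inside it has a gap of 999 bp on chromosome 8 (minus row 12131089-12132263 at FPKM 0.96, plus row 12133263-12133775 at 16.7). The pair just outside has a gap of 1002 bp on chromosome 6 (minus row 148891529-148891921 at 12.4, plus row 148892924-148895309 at 6.44).

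**Figure D1:**
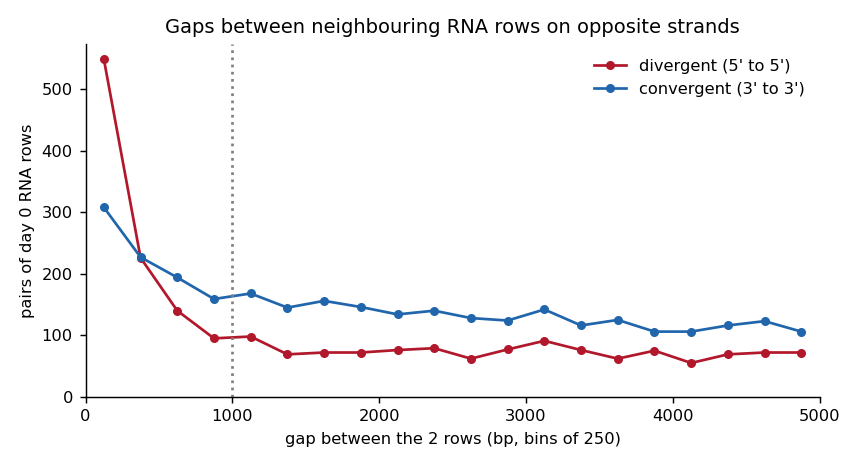
Number of pairs of day 0 RNA rows on opposite strands (y axis) by the gap between them in bins of 250 bp (x axis), for divergent rows in red and convergent rows in blue; the dotted line marks the 1000 bp limit. Divergent pairs fall from 549 in the first bin to 95 in the bin that ends at the limit, and then stay between 55 and 98.

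Members were longer than other rows but had like RNA levels. Their median length was 4224 bp against 1009 bp, and 38.0% of members against 27.5% of other rows were at least 10 kb long. Rows that pool several transcripts under a single value made up 42.3% of members and 27.6% of other rows. FPKM (fragments per kilobase of transcript, scaled to library size) had a median of 6.97 in members and 6.70 in other rows, and 90.5% of members were at 1 or more. The highest member value, 114269, belongs to a pooled row; 39 members were at 1000 or more, and 38 of these were at least 1 kb long. Such values were not read as RNA levels of a whole row, but they stay in the medians, shares, counts and correlations below. With members sorted as long (10 kb or more), short (under 1 kb) or in between, 161 pairs were long with long, 259 long with short and 142 short with short.

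The strands of a pair were not closer in RNA level than those of more widely spaced divergent rows. The lower member had a median FPKM of 4.24 and the higher one 10.86. The members lay within 4-fold of each other in 618 of 1010 pairs (61.2%, interval 58.1 to 64.2%), and 209 pairs differed by more than 10-fold. Head-to-head rows 1001 to 2000 bp apart were within 4-fold in 65.1% (interval 59.5 to 70.3%, n = 312), and those 2001 to 5000 bp apart in 71.3% (68.2 to 74.3%, n = 865). Among rows of at least 1000 bp the 3 shares were 52.8% (48.0 to 57.6%, n = 428), 51.6% (41.0 to 62.1%, n = 93) and 59.2% (52.7 to 65.4%, n = 245). With both starts inside 1 kb the share was therefore lower than at 2001 to 5000 bp among all rows, while among the longer rows the intervals overlap. The plus member was higher in 479 pairs and the minus member in 530, so neither strand dominated.

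Across pairs, the FPKM of the minus member said little about that of the plus member. Pearson's r of log2 FPKM was 0.009 and Spearman's rho 0.011 over the 1010 pairs; all pairs share the single day 0 library. Over the 51 pairs in which both members are single transcripts of at least 1 kb, r was 0.29 and rho 0.27. Long with short pairs had matching medians, 9.01 for the long and 8.91 for the short member, and the short member was the higher one in 134 of 259. Of short with short pairs 86.6% lay within 4-fold, against 52.2% of long with long pairs. Short members also spanned a narrower range of FPKM, with quartiles at 5.74 and 12.28. Members of at least 1 kb had quartiles at 2.22 and 11.8. The part of this range in the shares was not tested, so they do not show closer matching within a pair.

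**Figure D2:**
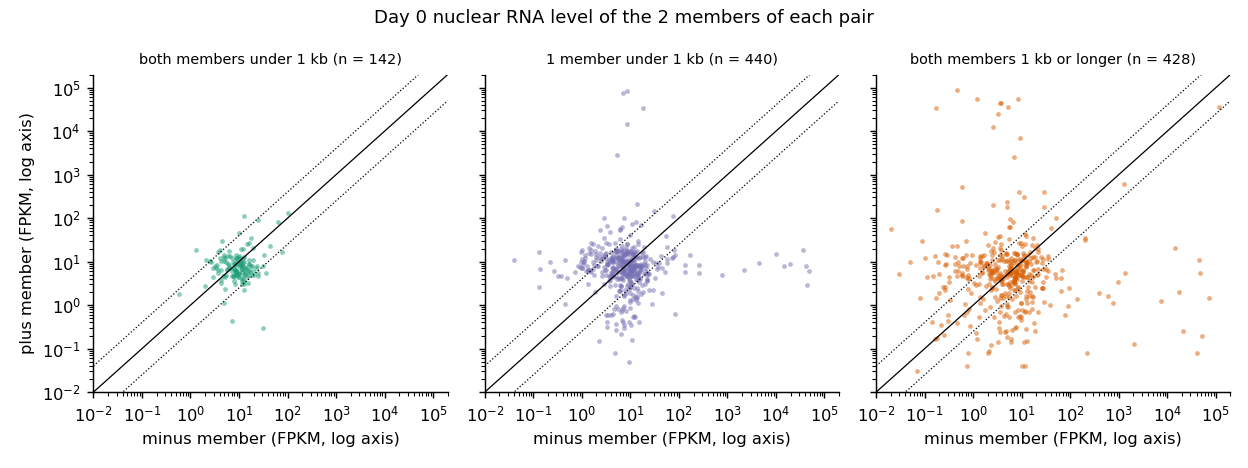
Day 0 FPKM of the minus member (x axis) against the plus member (y axis), both on log axes, 1 point per pair, split by how many members are under 1 kb; the solid line marks equal values and the dotted lines a 4-fold difference. The 142 short with short pairs form a compact cloud, while the 428 pairs of longer rows spread over several orders of magnitude with no visible slope.

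Some well expressed pairs had strands of like level at day 0. Named first are pairs of single-transcript rows of at least 1 kb, ranked by the lower member, a rule that favours balanced pairs. On chromosome 16, minus row 30063403-30064725 had FPKM 13.38 at day 0 and 16.91 at day 3, and plus row 30065426-30067882 had 14.35 and 10.66; the gap is 700 bp. On chromosome 12, minus row 73177483-73186559 had 8.74 and 4.72 and plus row 73186844-73202448 had 8.41 and 11.34; the gap is 284 bp. Both pairs stayed within 4-fold at both days and had no ChIP peak in any library. On chromosome 8, minus row 90482275-90483494 (12.02, then 28.37) and plus row 90483686-90484961 (8.35, then 12.77) start 191 bp apart, with ChIP scores of 93.2, 39.4 and 43.1 in day 0 replicates 1 and 2 and day 3, and no CLIP peak on either strand. Both rows of that pair are mirrored, as is the minus row of the chromosome 16 pair. Mirrored rows are defined below, and whether they are RNA of both strands was not tested. Some other pairs of the same ranking were less equal at day 0. On chromosome 19, minus row 6053630-6057751 had 11.68 and plus row 6057893-6059516 had 43.13. On chromosome 8, minus row 129112196-129117336 had 20.19 and plus row 129117765-129119001 had 10.2.

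Other pairs were made almost wholly from 1 strand. On chromosome 1, plus row 157589313-157590611 had FPKM 10.04 at day 0 and 10.95 at day 3, while minus row 157545166-157589250, starting 62 bp away, had 0.05 and was not listed at day 3. On chromosome 11, plus row 88829087-88830703 had 22.49 against 0.36 for minus row 88825972-88828231. On the X chromosome, minus row 149470709-149472106 had 9.91 against 0.04 for plus row 149472172-149507458, which starts 65 bp away. These are among the pairs with the largest ratio in each direction, so their imbalance is a description of the extremes.

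Many short members were mirrored: a row on the opposite strand covered at least 50% of the member and was itself covered to at least 50%. This class was defined after the data had been seen. It held 415 members (20.7%), against 12.4% of other rows. Among rows under 1 kb the shares were 48.5% and 19.3%; among members of 10 kb or more it held 1 of 761. In 645 pairs (63.9%) neither member was mirrored, in 310 pairs 1 was, and in 55 pairs both were. Mirrored members had a median FPKM of 9.19 and other members 6.20. Both members were within 4-fold in 94.5% of pairs with 2 mirrored members (interval 84.9 to 98.9%) and in 54.7% of pairs with none (50.8 to 58.6%). These classes also differed in length, with a median minus member of 538 bp against 8386 bp. Pairs with a mirrored member made up 24.8% at gaps of 0 to 100 bp, 35.0% at 101 to 250, 38.8% at 251 to 500 and 47.2% at 501 to 1000 bp. A library prepared with dUTP keeps strand; whether mirrored rows are RNA of both strands was not tested.

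Members also had company behind them on their own strand. A same-strand row ended within 1 kb upstream of the start in 45.5% of short members and 12.8% of other short rows, and in 28.8% against 2.85% of rows of at least 10 kb. Whether such a row and the member are pieces of a single transcript was not tested.

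Most pairs were still listed on both strands at day 3. A member was listed at day 3 when a same-strand day 3 row overlapped it: 1597 of 2004 members were (79.7%, interval 77.9 to 81.4%) against 67.3% of other rows (66.8 to 67.8%). The difference held within length classes: 57.4% against 48.0% under 1 kb, 89.0% against 79.8% from 1 to 10 kb, and 94.3% against 91.8% at 10 kb or more. Under 1 kb it was not seen among mirrored rows, at 68.4% of members against 69.2% of other rows. Rows under 1 kb that were not mirrored had 47.0% against 42.9%. A larger share of short members than of other short rows was mirrored, as given above, and its part in the difference was not tested. Both members were listed in 633 pairs (62.7%), 1 member in 343 and none in 34. A day 3 row began within 1 kb of the day 0 start for 77.2% of members and 62.5% of other rows. The pair rule itself was met by 811 pairs of day 3 rows, and 428 of the day 0 pairs (42.4%) were still a pair. With 1 library a day these values have no replicate check, and in bulk RNA fewer cells making an RNA cannot be told apart from less RNA per cell.

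Fewer members than rows in general were lower at day 3, while among rows listed at both days the shares were close. A change is the difference, day 3 less day 0, in log2(FPKM + 1), a scale that understates the change of low rows, and a row not listed at day 3 enters as 0. At 1 or more on this scale, 359 members (17.9%) were higher at day 3, where 14.9% of all rows were. At -1 or less, 536 members (26.7%) were lower, where 35% of all rows were. Among the 1597 members listed at both days, 359 (22.5%) were higher and 194 (12.1%) lower, where 21.9% and 11.1% of all such rows were. The median change was -0.03 in members and -0.22 in all rows, and 0.27 and 0.26 among rows listed at both days. The balance of higher and lower members depended on the rows counted: with a mean FPKM of at least 5, 315 were higher and 249 lower, and with changes centred on the median of all rows 457 and 495 were.

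Changes of the strands of a pair were set side by side at the same limits of 1 and -1 in log2(FPKM + 1). Over the 633 pairs with both members listed, 33 had both members at 1 or more and 9 had both at -1 or less. In 32 pairs the members passed the limits in opposite directions, in 274 only 1 member passed a limit and in 285 none did. Of single members listed at both days, 22.5% were higher and 12.1% lower. The counts that unlinked strands would give were not computed, so these counts do not show linked changes. Across all pairs Spearman's rho between the changes of both members was 0.015, described over 1010 pairs that share the same pair of libraries. For the 428 pairs of rows of at least 1 kb it was 0.10.

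The largest changes named by rule included members whose partner changed little and members whose partner passed the same limits, some in the opposite direction. Each day 3 value is that of the highest overlapping same-strand row, which can be longer than the member or pool several transcripts. A change here is thus one of listed values and need not be that of the member's own transcript. Plus row 95484946-95525566 on chromosome 8 went from FPKM 0.16 to 47.4, while its minus partner 95484329-95484658 went from 10.77 to 21. Minus row 16335775-16509322 on chromosome 1 went from 1.38 to 32.7, and its partner 16509802-16510286 went from 20.39 to not listed. Plus row 165635551-165638659 on chromosome 2 had FPKM 52.26 at day 0 and was not listed at day 3. Its partner, minus row 165635081-165635380, went from 2.38 to 17.6, so the strand with the higher listed value switched. Plus row 50412006-50413425 on chromosome 9 went from 12 to not listed, while its minus partner 50404443-50411954 stayed at 15.9 and 16.38. Minus row 43723192-43724652 on chromosome 10 went from 3.06 to 99404; the day 3 row over it is far longer and pools several transcripts, so this value is not read as its RNA level.

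About 1 pair in 6 had a CTCF ChIP peak at its gap in the smaller lists, and more in the largest list. A peak overlapped the gap or the 500 bp on either side in 150 of 1010 pairs in day 0 replicate 1 (14.9%, interval 12.7 to 17.2%), in 314 in day 0 replicate 2 (31.1%, 28.2 to 34.0%) and in 174 at day 3 (17.2%, 14.9 to 19.7%). The largest list had the highest share. ChIP peaks had median widths of 1964 to 2013 bp, wider than any gap, so a peak here marks a neighbourhood and not a position within the gap. The highest peak at each such pair had a median score of 38.7, 19.8 and 34.3, where all peaks of the lists had medians of 26.8, 16.6 and 29.6. The score is the authors' own value for each peak. Taking the highest peak of a window can raise the value, and peaks at other starts were not compared in this way.

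Member starts differed from other starts in ChIP by less than the spread between libraries. Within 500 bp of the start, 13.5%, 29.1% and 16.0% of members had a peak in day 0 replicates 1 and 2 and day 3, against 13.5%, 25.7% and 15.2% of other rows. The mean difference was 1.37 ± 1.81 percentage points (SD, n = 3 libraries; above 0 in 2 of 3), with an exact two-sided sign-flip p of 0.5 and a smallest possible p of 0.25, so the test could not have shown a difference. In day 0 replicate 2 the intervals did not overlap (27.2 to 31.2% of members, 25.3 to 26.2% of other rows); without that library the mean difference was 0.347 points. Its direction depended on row length. Among rows under 1 kb, members were higher by 4.70 ± 1.85 points, in 3 of 3 libraries. Among rows of 1 to 10 kb the difference was -0.46 ± 1.40 and at 10 kb or more -1.31 ± 1.83. With pairs made only from rows of at least 1000 bp, the difference was -2.63 points. The other starts in that comparison include members of that length whose partner is shorter. With a peak's midpoint required in the window the difference was -0.203 points. None of these sets of 3 libraries could give a p under 0.25.

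The pairs with a ChIP peak were largely shared between libraries and days. A peak was present in all 3 libraries at 121 pairs (12%) and in none at 671 (66.4%). Of the 150 pairs of day 0 replicate 1, 139 also had a peak in replicate 2 (92.7%), which is 44.3% of the pairs of replicate 2. At 160 of the 174 day 3 pairs (92.0%) a day 0 library had a peak as well, and 87.1% of the 139 pairs found in both day 0 libraries kept one at day 3. In day 0 replicate 2 alone there were 140 pairs. Only 18 pairs had a peak in both day 0 libraries and not at day 3, and 14 had one at day 3 alone, numbers that the list sizes and the single day 3 library leave without a replicate check.

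Pairs with the narrowest gaps had a ChIP peak least often. Counting peaks within 500 bp of the midpoint between the starts, so that the window does not grow with the gap, 10.6%, 22.8% and 11.8% of the 254 pairs with gaps of 0 to 100 bp had one. The 235 pairs with gaps of 501 to 1000 bp had one in 17.9%, 34.9% and 19.6%. All 3 libraries went the same way, and in day 0 replicate 2 the intervals did not overlap (17.8 to 28.5% against 28.8 to 41.4%). In the other libraries they did. Divergent rows 1001 to 2000 bp apart were at 17.3%, 35.3% and 20.5%, near the widest pairs. Row length and mirrored rows moved with the gap: the median plus member was 10288 bp long at 0 to 100 bp and 1216 bp at 501 to 1000 bp, and the share with a mirrored member is given above; their part in the difference was not tested.

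**Figure D3:**
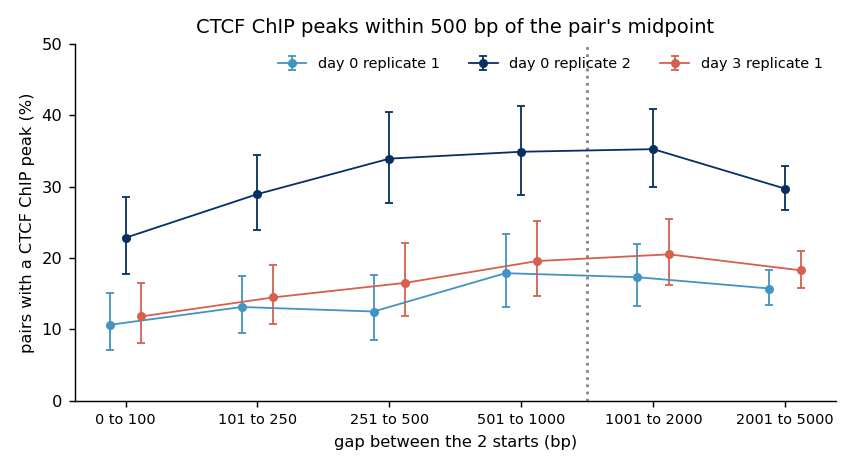
Share of divergent pairs with a CTCF ChIP peak within 500 bp of the midpoint between their starts (y axis, %) by the gap (x axis), 1 line per ChIP library, with 95% Clopper-Pearson bars; classes right of the dotted line lie outside the pair rule. In each library the narrowest class is the lowest, at 10.6%, 22.8% and 11.8%.

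The pairs named next had a ChIP peak in all 3 libraries and are taken from the 6 with the highest score in day 0 replicate 1. On chromosome 9, minus row 72366069-72379665 (FPKM 0.29, not listed at day 3) and plus row 72379936-72470744 (14.17, then 15.61) start 270 bp apart, with scores of 198, 125 and 133 in day 0 replicates 1 and 2 and day 3. On chromosome 4, minus row 151401985-151412677 (0.46, then 0.13) and plus row 151413251-151434133 (22.63, then 17.05) start 573 bp apart, with scores of 111, 105 and 75.1. On chromosome 8, minus row 107898643-107899092 (9.84, then not listed) and plus row 107899281-107906762 (1.16, then 0.82) start 188 bp apart, with scores of 125, 126 and 107. On the X chromosome, minus row 35533325-35533785 (4.85, then not listed) and plus row 35533905-35534803 (1.14, then 1.45) start 119 bp apart, with scores of 110, 109 and 142. CLIP in the first 1 kb differed between these pairs. The plus row of the chromosome 9 pair had 22, 0, 85 and 30 peak bases in day 0 replicates 1 and 2 and day 3 replicates 1 and 2. The plus row of the chromosome 8 pair had 43 and the minus row of the X pair 93, each in day 0 replicate 2 only. In the chromosome 4 pair no CLIP peak lay in the first 1 kb of either strand in any library. The highest-scoring pairs with a ChIP peak at 1 day only had lower scores: the pair of chromosome 19 at 10679020-10679693 and 10679890-10704306 had 71.7 and 16.6 at day 0 and no day 3 peak, and the pair of chromosome 2 at 78708636-78709075 and 78709204-78761450 had 35.7 at day 3 alone.

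CLIP peaks on the member's own strand lay in the first 1 kb of 10.6% and 16.8% of members at day 0 and 10.3% and 16.9% at day 3 (replicates 1 and 2; 212, 337, 206 and 339 of 2004). Other rows had 9.10%, 14.8%, 8.50% and 13.8%. Members were higher in 4 of 4 libraries, by 2.09 ± 0.71 percentage points (SD, n = 4), with an exact two-sided sign-flip p of 0.125, the smallest that 4 libraries can give. This difference depended on the set of rows counted. With pairs made only from single-transcript rows (336 pairs), 8.88% of members had a peak on average and the difference was -0.719 points. The other starts in that comparison include single-transcript members whose partner pools several transcripts. Of the 667 members of those pairs, 63.3% are under 1 kb, and the parts of length and pooling were not tested.

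Row length separated members with more CLIP from members with less. The 1 kb window is the same for all rows and runs past the end of a shorter one. Among rows under 1 kb, 5.57%, 8.91%, 5.15% and 7.94% of members had a peak against 8.64%, 13.7%, 7.43% and 10.5% of other rows, a difference of -3.18 ± 1.12 points, below 0 in 4 of 4 libraries. From 1 to 10 kb, members had 14.1%, 18.9%, 14.3% and 20.2% against 10.1%, 16.1%, 9.89% and 15.6%, higher by 3.94 ± 0.82. At 10 kb or more they had 12.9%, 22.9%, 12.4% and 23.1% against 9.09%, 15.9%, 9.26% and 18.3%, higher by 4.68 ± 1.71. Each exact sign-flip p was 0.125. Among rows of at least 1 kb the members were above the other rows for single-transcript rows (by 2.18 ± 1.17, n = 442 members) and for pooled rows (by 4.25 ± 1.06, n = 844 members), in 4 of 4 libraries each. Across sets of rows the size of the difference, and for short rows its sign, therefore moved with length and pooling.

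**Figure D4:**
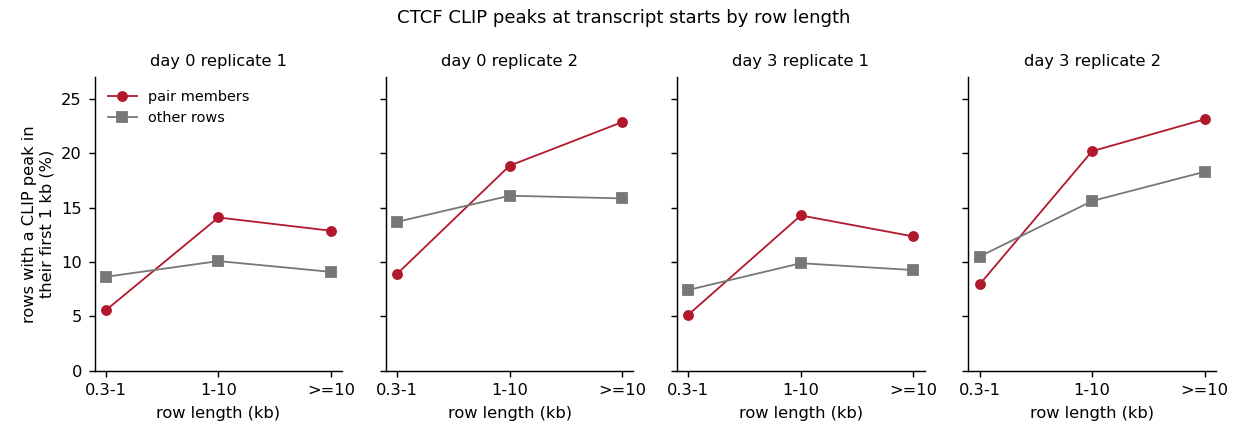
Share of rows with a CLIP peak on their own strand in the first 1 kb (y axis, %) by row length in kb (x axis), for pair members (red circles) and other rows (grey squares), 1 panel per CLIP library. In each of the 4 panels members lie below other rows under 1 kb and above them in both longer classes.

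RNA level moved with CLIP in members as in other rows. Among members of at least 1 kb, the share with a CLIP peak in day 0 replicate 2 was 7.61% at FPKM under 1, 13.9% at 1 to 5, 26.7% at 5 to 20 and 38.5% at 20 to 100. Other rows of that length were at 2.99%, 10.5%, 20.3% and 38.3%. In replicate 1 of day 0 members were at 4.35%, 9.37%, 16.0% and 23.9% and other rows at 1.88%, 6.0%, 11.9% and 24.9%. The members' excess was thus seen at FPKM under 20, and at 20 to 100 the shares were close, as they were at day 3 (22.0% and 36.7% against 22.9% and 39.4%). At FPKM of 100 or more, 66 members were at 24.2%, 30.3%, 15.2% and 24.2% and other rows at 14.8%, 23.0%, 16.0% and 27.2%, with no common direction over the libraries.

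Mirrored members carried little CLIP. Peaks lay in the first 1 kb of 1.45%, 3.37%, 2.2% and 3.61% of the 415 mirrored members, against 13.0%, 20.3%, 12.4% and 20.4% of the 1589 others. Mirrored rows in no pair were as low, at 2.15%, 2.83%, 2.06% and 3.63%, so this is shared with rows outside the pairs. Their ChIP shares were not low: 18.3%, 32.8% and 20.5% of mirrored members had a peak near the start, against 12.2%, 28.2% and 14.8% of other members. Without mirrored rows, members exceeded other rows in CLIP by 3.71 ± 1.04 points in 4 of 4 libraries, and for rows under 1 kb the difference was -0.79 ± 1.16 points (above 0 in 1 of 4; exact sign-flip p = 0.375).

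Around the start, CLIP peaks followed the strand that is transcribed. Over the 1149 members of at least 2 kb, the first 200 bp of the own strand held 4.61, 6.88, 4.18 and 5.92 peak midpoints per 100 starts, against 2.37, 5.07, 2.55 and 4.03 per 100 starts of 13237 other rows. On the opposite strand of the same 200 bp, members held 0 to 0.261 per 100 starts. Upstream of the start the opposite strand carried the partner's peaks: within 1 kb upstream, 8.43%, 13.6%, 8.53% and 13.8% of members had an opposite-strand peak against 3.51%, 5.74%, 3.61% and 6.26% of other rows. That window holds the partner by the way pairs were chosen, so the difference is a description. Antisense peaks inside the first 1 kb were rarer, in 1.35% to 1.95% of members and 1.69% to 3.53% of other rows.

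**Figure D5:**
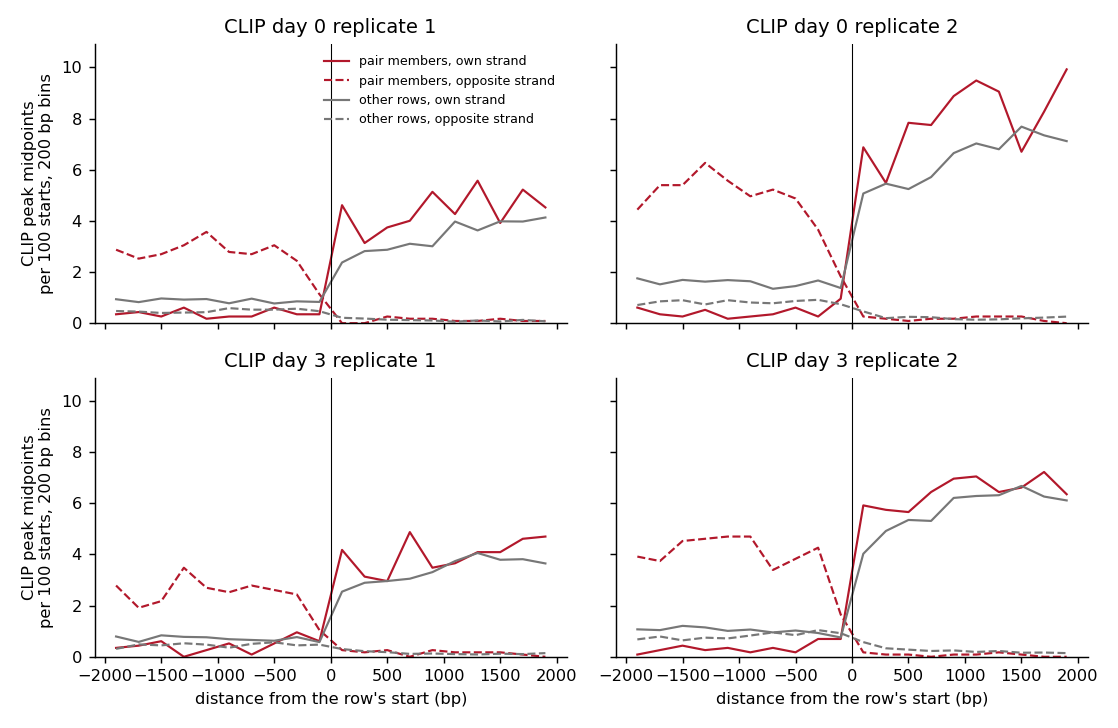
CLIP peak midpoints per 100 starts in 200 bp bins (y axis) by distance from the start (x axis, bp, downstream to the right), for rows of at least 2 kb: pair members in red, other rows in grey, own strand solid, opposite strand dashed, 1 panel per library. Members' own-strand line steps up at the start in each panel, to 4.61, 6.88, 4.18 and 5.92 in the first 200 bp, and their opposite-strand line falls there, upstream of which the partner's transcript runs.

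CLIP rarely marked both strands of a pair in the same library. A peak lay on either strand in 19.7%, 29.0%, 19.7% and 30.0% of pairs, and on both strands in 14, 44, 7 and 37 pairs. No pair had peaks on both strands in all 4 libraries, and 85 pairs had them in at least 1. In 38 pairs 1 member had a peak in all 4 libraries. Counted by row, 1.90% of members and 1.88% of other rows had one in all 4, so this is shared with rows outside the pairs. In 462 pairs (45.7%) neither strand had a peak in any library. When the minus member had a peak, the plus member had one in 12.2%, 26.7%, 5.83% and 22.6% of pairs, against 9.39%, 15.1%, 8.88% and 16.4% when it had none; day 3 replicate 1 went the other way from the rest. In long with short pairs the peak was mostly on the long member: 13.5%, 19.3%, 12.4% and 22.4% of 259 long members against 3.86%, 5.79%, 3.47% and 5.79% of their short partners.

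A few pairs carried CLIP on both strands in several libraries. Values are peak bases in the first 1 kb, in day 0 replicates 1 and 2 and then day 3 replicates 1 and 2. On chromosome 13, minus row 22134348-22134818 had 117, 101, 79 and 0 and plus row 22135083-22135545 had 32, 47, 100 and 0. Their FPKM went from 101 to 110 and from 130 to 56.0, the highest levels among the pairs named here for CLIP on both strands except for a pooled row. On chromosome 5, minus row 22937628-22939737 had 99, 32, 80 and 54 and plus row 22940267-23010053, a pooled row, had 0, 121, 0 and 57. On chromosome 12, minus row 79943976-79962625 had 0, 28, 0 and 147 and plus row 79962806-79988527 had 34, 78, 0 and 105, with ChIP scores of 31.7, 45.5 and 30.4 at the gap. On chromosome 17, minus row 46804407-46817879 had 56, 89, 0 and 42 and plus row 46818296-46820188 had 7, 52, 90 and 0, with no ChIP peak. None of these rows had a peak in every library on both strands.

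CLIP was less frequent at pairs with a ChIP peak in every library. Of the 121 pairs with a ChIP peak in all 3 libraries, 14.0%, 19.8%, 17.4% and 22.3% had a CLIP peak on either strand. The 671 pairs with no ChIP peak had 20.4%, 29.5%, 19.7% and 30.3%, and the 218 pairs with a ChIP peak in 1 or 2 libraries had 20.6%, 32.6%, 21.1% and 33.5%. The fully bound pairs were lowest in each of the 4 libraries and those with 1 or 2 ChIP libraries highest. Mirrored rows moved with this: 47.1% of the fully bound pairs had a mirrored member, against 33.9% of pairs with a peak in 1 or 2 libraries and 34.9% of those with none. Among pairs with no mirrored member, added after seeing the data, CLIP lay at 21.9%, 26.6%, 20.3% and 25% of 64 fully bound pairs, 23.6%, 41.0%, 25% and 41.0% of 144 pairs with a peak in 1 or 2 libraries, and 24.9%, 35.2%, 23.6% and 33.9% of 437 pairs with none. The median length of the shorter member was 628 bp in fully bound pairs and 729 bp in pairs without ChIP, and the part of length was not tested.

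No start was called as changed in CLIP between the days. limma on log2 of peak bases in the first 1 kb, scaled to the library, compared day 3 with day 0 at the 4256 starts with a peak in at least 2 libraries. At an adjusted p under 0.05, 0 starts were called (0% of those tested), and the lowest adjusted p was 0.319 in limma. Of the members, 272 entered the test, 0 were called and 46 (16.9%) had an unadjusted p under 0.05, where 14.4% of all tested starts had. Their median difference was 0.02, with 140 above 0 and 132 below. In simulated data of the same size, with the same spread at every start, a difference of 6 on the log2 scale was recovered at 68% of 200 changed starts and a difference of 3 at 1%. Real starts need not share the same spread, so these values do not give the detection limit of these libraries. The absence of calls does not show that the starts were unchanged.

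The members with the lowest p had peaks at 1 day only, a pattern that the filter of 2 libraries and the absence of spread at 0 favour, so it is a description of them. Minus row 10498734-10643366 on chromosome 15 had 0 and 0 peak bases at day 0 and 60 and 167 at day 3, while its FPKM went from 6.09 to 16.2. Minus row 30122872-30124484 on chromosome 6 had 0 and 0, then 90 and 63, with FPKM of 10.3 and 15.6. In the other direction, plus row 165635551-165638659 on chromosome 2 had 166 and 170, then 0 and 0, and its FPKM went from 52.26 to not listed. Its partner, minus row 165635081-165635380, kept CLIP in all 4 libraries, at 48, 45, 50 and 35 bases. Minus row 127929006-127930931 on chromosome 10 had 108 and 207, then 0 and 0, while its FPKM went from 13.96 to 11.4. Each had an adjusted p of 0.319 in limma, and a fold is not given because 1 day is at 0. Plus row 88829087-88830703 on chromosome 11 kept CLIP at both days, with 293, 288, 77 and 71 bases, although it was not listed in the day 3 RNA.

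The X chromosome held 34 of the pairs, 4.99% of its rows being members (interval 3.89 to 6.28%); over the chromosomes this share ran from 3.77% on chromosome 6 to 8.05% on chromosome 17. X pairs had a median gap of 109 bp and autosomal pairs 222 bp. A ChIP peak lay at 3, 9 and 7 of the 34 X pairs (8.82%, 26.5% and 20.6%) against 15.1%, 31.2% and 17.1% of 976 autosomal pairs. CLIP on either strand was found at 10, 13, 7 and 9 X pairs (29.4%, 38.2%, 20.6% and 26.5%) against 19.4%, 28.7%, 19.7% and 30.1%. With 34 pairs the ChIP intervals of X contained the autosomal shares in each library. Both members were listed at day 3 in 20 X pairs (58.8%) and 62.8% of autosomal pairs.

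Among X pairs with well expressed strands, minus row 20192452-20194745 and plus row 20194748-20228027 start 2 bp apart. Their FPKM was 25.89 and 9.46 at day 0 and 26.5 and 9.76 at day 3; the minus member had 97, 15, 43 and 0 CLIP bases and the plus member had none. Minus row 71023985-71032236 (17.44, then 17.90) and plus row 71032367-71036165 (12.72, then 16.08) start 130 bp apart, with ChIP scores of 31.5 in day 0 replicate 2 and 33.7 at day 3. Minus row 68809100-68809980 (14.37, then 12.02) and plus row 68810025-68810727 (24.89, then 25.83) start 44 bp apart, with no ChIP peak. The minus row of that pair is mirrored. These 3 pairs kept both strands at day 3 at nearly the same level, but other pairs ranked by the same rule did not. Minus row 45764223-45807346 went from FPKM 56.38 to 2.46, and its partner 45808303-45808620 from 9.47 to not listed. Plus row 106029731-106170245 went from 9.12 to 198.85, and its partner from 12.58 to 6.06. Minus row 148439125-148450949 went from 44991 to 8.1, while its partner went from 10.65 to 13.48. Most of these rows pool several transcripts.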

How the data were processed

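FPKM values, scored CLIP peaks and scored ChIP peaks were used from 9 of 16 samples. The RNA lists deposited by the authors hold 1 value a row, taken as FPKM, the unit of Cufflinks output, since no header names it. The peak lists deposited by the authors hold a score for each peak, of a scale not given in the sources used here. Build mm9, Cufflinks 2.1.1, TopHat2 2.0.8 and Novoalign 3.00.03 are named without roles per the submitters' processing notes, as are cutadapt 1.0, Trim Galore 0.3.3, bedtools 2.17.0 and SAMtools 0.1.18. The peak caller is not given there. Peaks were listed for each library separately. Gene names, annotation and sequence were not used here, since the reference tables are of another build. Allelic lists were not used.

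The day 0 list held 40674 rows, of which 5240 were under 300 bp and left out. Rows on 1 strand never overlapped. Peaks counted at an overlap of 1 bp: CLIP on the own strand in the first 1 kb of a row (the window runs on past the end of a shorter row), ChIP within 500 bp of the gap or start. Shares were compared over libraries by exact two-sided sign-flip permutation tests. CLIP was compared between days with limma (version 3.58.1, under R 4.3.3) from log2 of peak bases per Mb of the library's peak bases plus a pseudocount of 1, with Benjamini-Hochberg adjustment over all tested starts. Day 3 FPKM is that of the highest same-strand day 3 row that overlaps a member, 0 if none. ChIP at day 3 and RNA have 1 library each, so no test between days was made. Other steps used SciPy 1.17.1, NumPy 2.4.6 and pandas 2.3.3 in Python 3.11.15, with matplotlib 3.10.9 for plots. Pair finding, overlap and limma were tested on simulated data.

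Members, lists and tests were chosen with earlier results of these data known. Pairs were named by fixed rules: highest FPKM of the lower member, most CLIP bases on the strand with fewer, highest ChIP score in day 0 replicate 1 among pairs with a peak in all 3 libraries, strongest ChIP peaks of 1 day, X pairs by the lower FPKM, largest strand ratios, largest day changes among rows with a mean FPKM of at least 5 (single-transcript rows of at least 1 kb for levels, ratios and changes), and lowest limma p. Not each pair a rule ranks is printed.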

Additional observations from a re-analysis of the deposited data

How the results depend on the processing

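The mean share of members with CLIP was 13.6% (SD over libraries 3.72). It was 7.61% in the first 500 bp, 22.1% in the first 2000 bp, 7.91% with peaks at or above the median score, 18.1% for pairs of rows of at least 1000 bp and 8.88% for single-transcript rows. For single-transcript rows and rows of at least 1000 bp, in CLIP and ChIP, other starts include members of pairs that these alternatives leave out. The CLIP difference from other starts reversed for single-transcript rows (-0.719 points) and for no other alternative. It kept its sign but was 0.779 in the first 500 bp, 0.803 with peaks at or above the median score and 3.23 in the first 2000 bp. It was 3.76 without mirrored members and 4.97 for rows of at least 1000 bp. Leaving out 1 library in turn gave 1.75 to 2.29 points and shares of 12.6% to 14.8%. The mean ChIP share of pairs was 21.1% and fell to 10.4% with a peak's midpoint in the window. The ChIP difference reversed with the midpoint rule (-0.203 points) and for rows of at least 1000 bp (-2.63). Elsewhere it kept its sign, at 0.144 for gaps of at most 500 bp, 0.325 without mirrored members, 0.355 with peaks at or above the median score, 0.989 within 250 bp, 2.71 within 1000 bp and 3.59 for single-transcript rows, against 1.37. Leaving out a day 0 ChIP library gave shares of 16.0% and 24.2% and differences of 0.347 and 2.07 points. Pairs within 4-fold were 52.8% for rows of at least 1000 bp, 66.7% for single-transcript rows and, in an alternative chosen after seeing the data, 54.7% without mirrored members. Members lower at day 3 numbered 249 with a mean FPKM of at least 5 (315 higher, so the balance turned) and 194 (359 higher) when only members listed at both days were counted (added after seeing the data). No alternative for CLIP between days called a start: the lowest adjusted p in limma ran from 0.0942 without scaling to 0.998 without day 0 replicate 1, and unadjusted p under 0.05 ran from 3 to 240 starts when 1 library was left out. With the replicate number as a block, 0 starts were called, the lowest adjusted p in limma was 0.407, and 519 starts had an unadjusted p under 0.05; the correlation of same-numbered libraries was 0.0175, with 2 numbers shared, so the numbers were not taken to pair the libraries. The number of libraries limits every test over libraries, and the unknown read depth limits what an absent peak means.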
